A study of Mus musculus with 9 samples.

Results

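The transcription regulators of haploid germ cells examined here are Crem, Fhl5, Tbpl1, Taf7l, Gtf2a1l, Rfx2, Sox30, Tcfl5 and Spz1. They were chosen by symbol, and each symbol was found in 1 row, giving 9 of the 38674 genes of the table. The study deleted part of Pfn3, which encodes the testis-specific profilin 3, an actin-binding protein of developing spermatids, and sequenced testis RNA to ask whether gene expression changed. The samples were 3 Pfn3+/+ (WT), 3 Pfn3+/- (Het) and 3 Pfn3-/- (KO) males of the strain C57BL/6, and the labels name no treatment. All were sexually mature, within the age range of a few months that the methods give for every experiment, and the age of each male is not given in the sources used here. The study made more than 1 deletion allele with CRISPR/Cas9, and which allele the sequenced males carried is not stated. The deletion is in the germ line and was not driven by a Cre. The tissue was whole testis without its capsule, so every value is a sum over all cell types of the organ.

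In the testis, transcription is rebuilt after meiosis. CREM binds cAMP response elements (CREs) of spermatid genes, and FHL5 is its germ cell co-activator. TBPL1, TAF7L and GTF2A1L are germ cell relatives of the general factors TBP, TAF7 and TFIIA, which place RNA polymerase II at start sites. RFX2 binds X-box sequences of genes for cilia and flagella, SOX30 is an HMG-box factor needed for spermatids to progress, and TCFL5 and SPZ1 are helix-loop-helix factors of late germ cells.

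To show what surrounds the start sites of the members that the comparisons below turn on, 250 bases upstream of the RefSeq start of Sox30, Tcfl5 and Rfx2 are printed 5′ to 3′ on the strand of the gene (build GRCm38.p6). Capitals mark matches, on either strand, to the CRE half-site TGACG, the X-box half-site GTTGCC, the SOX core ACAAT and the MYB core CNGTTA. The full CRE TGACGTCA and the E-box CACGTG were also searched and had no match in these stretches.
Sox30 (chr11:45980060-45980309, plus strand): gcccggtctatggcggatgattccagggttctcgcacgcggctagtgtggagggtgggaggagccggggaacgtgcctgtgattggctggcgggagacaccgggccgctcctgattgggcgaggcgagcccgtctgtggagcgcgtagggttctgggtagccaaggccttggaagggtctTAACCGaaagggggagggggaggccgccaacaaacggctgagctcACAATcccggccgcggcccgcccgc
Tcfl5 (chr2:180642692-180642941, minus strand): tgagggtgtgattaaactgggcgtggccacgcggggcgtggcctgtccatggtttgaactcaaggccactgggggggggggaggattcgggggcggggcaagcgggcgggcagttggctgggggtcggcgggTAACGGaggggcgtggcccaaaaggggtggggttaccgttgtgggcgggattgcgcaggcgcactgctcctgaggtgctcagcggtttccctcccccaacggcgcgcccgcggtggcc
Rfx2 (chr17:56831009-56831258, minus strand): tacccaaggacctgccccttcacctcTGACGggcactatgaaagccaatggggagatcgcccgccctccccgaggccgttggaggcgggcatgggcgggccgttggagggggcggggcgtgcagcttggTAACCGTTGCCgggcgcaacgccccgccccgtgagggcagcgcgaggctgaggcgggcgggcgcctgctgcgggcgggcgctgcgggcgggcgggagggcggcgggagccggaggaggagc

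All 3 stretches held a MYB core, read on the opposite strand as TAACNG. It began 70 bases upstream of the start in Sox30, 118 bases upstream in Tcfl5 and 121 bases upstream in Rfx2. In Rfx2 this match shares a base with an X-box half-site that began 116 bases upstream, and a CRE half-site began 224 bases upstream. Sox30 also held a SOX core 25 bases upstream. Windows of 300 bases, from 250 before to 50 after each start, were searched for all genes, and 8 of 9 members were matched to a window (Crem was not). These 8 members had 9 windows, the extra window being in Fhl5. The shares below are of windows while members are counted as genes, so the measures are not alike. The MYB core was in 23.3% of 32851 windows and in a window of 5 of the 8 members (Tcfl5, Fhl5, Sox30, Rfx2 and Gtf2a1l). The SOX core was in 31.0% of windows and in 4 of 8 members (Fhl5, Sox30, Spz1 and Taf7l). The X-box half-site was in 12.5% of windows and in 3 of 8 members (Rfx2, Spz1 and Gtf2a1l). The CRE half-site was in 20.8% of windows and, among the members, in Rfx2 alone, while the full CRE TGACGTCA was in 1.79% of windows and in 0 of 8 members. The E-box CACGTG, a kind of site bound by helix-loop-helix factors, was in 7.15% of windows and, of the members, in Taf7l. A match is a description of the letters and not a binding site. The windows of Rfx2, Tcfl5 and Sox30 held 38, 35 and 28 CpG dinucleotides, against a median of 7 over all windows, and the window of Spz1 held 0.

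Each library held 3375546 to 4287335 reads on genes, and 3 reads, the floor used for detection, equalled 2.58 to 3.71 normalized counts. Floors and counting errors cover counting error only. A normalized count is a read count divided by the size factor of that library. Libraries of the same genotype differed by more than 2 Poisson SD in 35.1% to 71.1% of genes, so no library was a copy of another. Mean Pfn3 was 449 ± 124 normalized counts (SD, n = 3) in WT males, 267 ± 114 in Het males and 189 ± 104 in KO males (KO against WT log2 fold change -1.41, limma adjusted p = 0.610). Every KO male and every Het male was below every WT male for Pfn3. The libraries read the 3′ end of transcripts, while the deletions lie in the coding sequence. Where the Pfn3 reads lay was not examined, so these reads do not check the labels. The 4 epididymis markers summed to at most 7.72 normalized counts in any male, and markers of spermatocytes, spermatids, Sertoli and Leydig cells were present in every genotype.

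All 9 members were well above this floor in every male and passed the filter of each comparison. The fewest reads behind any value were 87, for Crem in WT male 1, where the counting error was 10.7%, and the most were 4870, for Spz1. Per kb of annotated exons, Spz1 was the highest member, at 2469 ± 545 normalized counts per kb (SD over 9 males), and it exceeded Gtf2a1l in 9 of 9 males. Gtf2a1l followed at 988 ± 122 per kb, then Fhl5 at 743 ± 234 per kb. Gtf2a1l exceeded Fhl5 in 8 of 9 males, and Fhl5 exceeded Tcfl5 in 9 of 9. Tcfl5 was at 350 ± 67.8 per kb, Tbpl1 at 285 ± 75.8 and Sox30 at 164 ± 50.4. The order of Tcfl5 above Tbpl1 held in 7 of 9 males, and that of Tbpl1 above Sox30 in 8 of 9. The lowest members were Taf7l (68.8 ± 29.6 per kb), Rfx2 (67.7 ± 18.8 per kb) and Crem (65.0 ± 50.6 per kb). Taf7l exceeded Rfx2 in 5 of 9 males and Rfx2 exceeded Crem in 6 of 9, so on this scale these 3 neighbours did not differ beyond their spread. Reads of a 3′ library do not grow with transcript length, so this order depends on the division by exon length. By normalized count alone Tcfl5 (mean 1107) was above Fhl5 (mean 870) in 8 of 9 males, and Rfx2 (mean 495) was above Taf7l (mean 154) in 9 of 9.

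**Figure D1:**
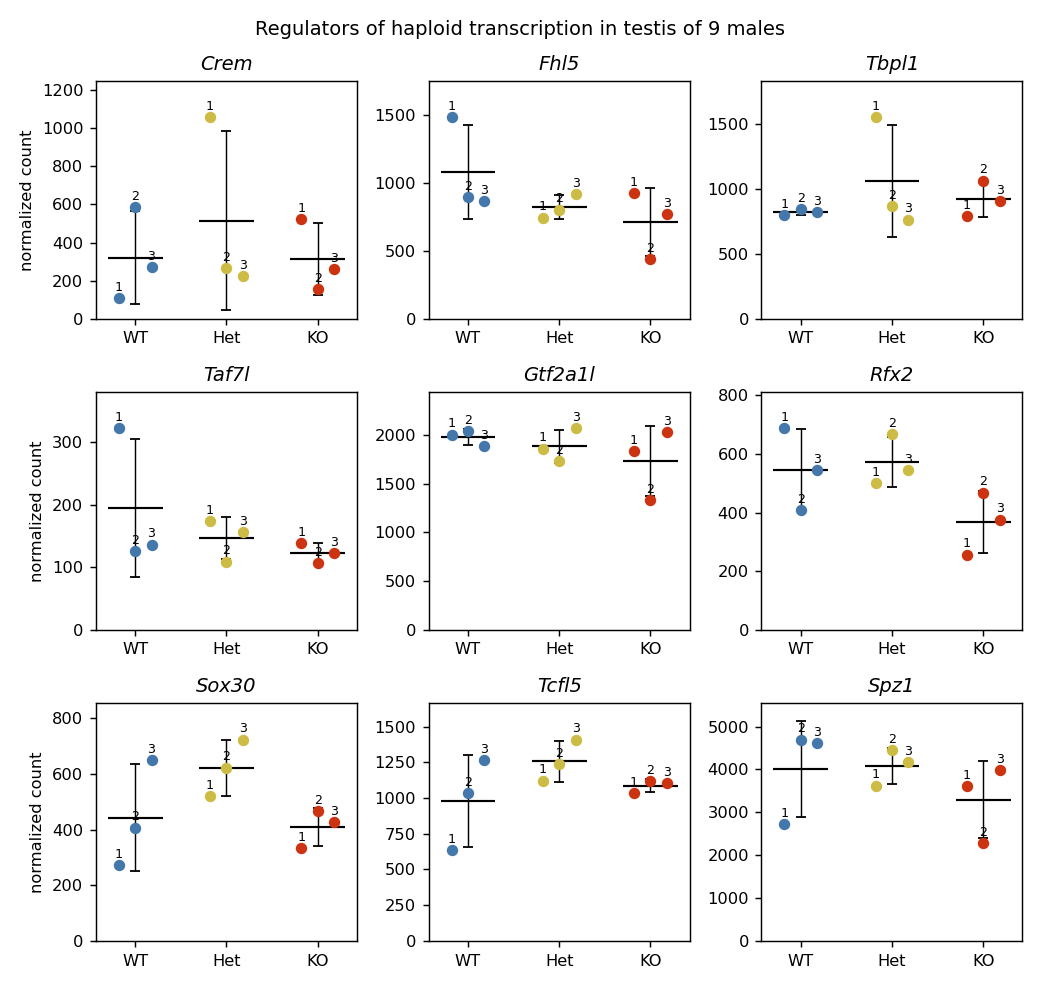
Normalized counts (y axis, from 0) of the 9 regulators in each male, by genotype (x axis). Points are males with their replicate number, and the horizontal bar and whiskers are mean and SD (n = 3); the genotypes overlap in every panel for KO against WT.

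CREM drives many spermatid genes, and its gene is a locus with many isoforms, including repressors from an internal promoter. Crem lies on the minus strand of chromosome 18 (GRCm38, 3266048 to 3337748), with 39 annotated transcripts that end at 27 different places. In WT males 1, 2 and 3, Crem was at 108, 585 and 269 normalized counts. In Het males it was at 1058, 264 and 224, and in KO males at 525, 155 and 261. One male of each genotype stood high (WT 2, Het 1 and KO 1), and the 3 genotypes overlapped. KO against WT gave a log2 fold change of 0.11 (SE 0.71, 95% interval -1.62 to 1.83, limma adjusted p = 0.964). Its direction turned without WT male 1, at -0.52, or without KO male 1, at -0.35. Crem was also the member with the widest spread between males of the same genotype, with an SD of 1.12 on the log2 scale. That is the 86.7th percentile among 8500 genes with a mean of 50 to 6000 normalized counts, whose median SD was 0.38. The antisense locus Gm6225 overlaps Crem by 1069 bases on its 5′ side and ranged from 22.3 to 64.6 normalized counts.

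**Figure D2:**
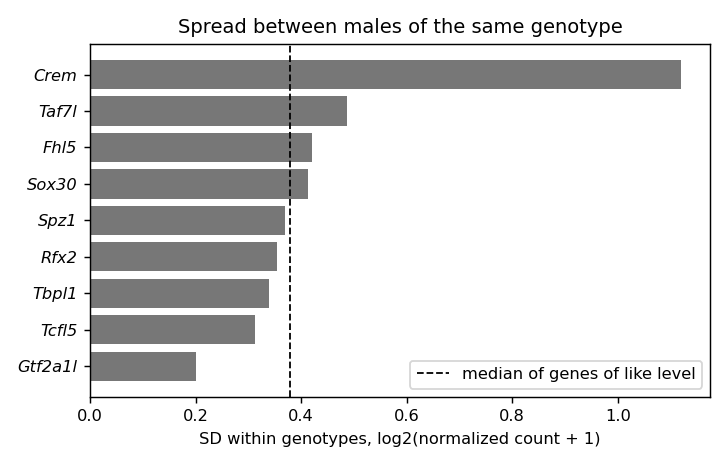
SD of log2(normalized count + 1) between males of the same genotype (x axis) for each regulator (y axis), as bars from 0. The dashed line is the median of genes with a mean of 50 to 6000 normalized counts, 0.38; Crem, at 1.12, is the longest bar and Gtf2a1l, at 0.20, the shortest.

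FHL5, also called ACT, is the LIM-domain partner of CREM. Fhl5 (chromosome 4, 25199908 to 25242876, minus strand) was at 1483, 894 and 863 normalized counts in WT males 1, 2 and 3. It was at 923, 436 and 769 in KO males 1, 2 and 3, and at 745 to 915 in Het males. WT male 1 was the highest and KO male 2 the lowest of all 9, and the genotypes overlapped. The log2 fold change was -0.63 (SE 0.36, 95% interval -1.498 to 0.24, limma adjusted p = 0.632) for KO against WT. It was -0.31 without KO male 2 and -0.38 without WT male 1.

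TBPL1, TAF7L and GTF2A1L are the germ cell forms of the general machinery. Gtf2a1l (chromosome 17, 88668660 to 88715152, plus strand) was at 2004, 2044 and 1884 normalized counts in WT males. It was at 1860.3, 1734 and 2069 in Het males and at 1835, 1330.2 and 2027 in KO males. Its spread was the narrowest of the members (SD 0.20 on the log2 scale, 11.5th percentile), and only KO male 2 stood low. KO against WT gave -0.21 (SE 0.20, 95% interval -0.70 to 0.27, limma adjusted p = 0.686), and -0.035 without KO male 2. Taf7l, on the X chromosome (134460118 to 134476490, minus strand), was at 322, 126 and 136 normalized counts in WT males, 174, 109 and 156 in Het males and 138, 106 and 122 in KO males. WT male 1 stood apart from the other 8 males, and the log2 fold change for KO against WT was -0.54 (SE 0.39, limma adjusted p = 0.648) with it and -0.11 without it. Tbpl1 (chromosome 10, 22703879 to 22731938, minus strand) was at 796, 840 and 817 normalized counts in WT males, 1549, 866 and 762 in Het males and 790.2, 1061 and 904 in KO males. Het male 1 was the high value, and KO against WT gave 0.16 (SE 0.17, limma adjusted p = 0.722). The last 407 bases of Tbpl1 overlap the antisense gene Slc2a12 (16.1 to 193 normalized counts), and whether the counting used strand is not stated.

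The germ cell forms were then set against their general forms within each male, as a difference of log2(normalized count + 1), for 7 pairs in all. Gtf2a1l minus Gtf2a1 averaged 4.02 ± 0.18 (SD, n = 3) in WT males, 3.52 ± 0.27 in Het males and 3.23 ± 0.50 in KO males. Every WT male (3.82 to 4.18) was above every KO male (2.68 to 3.64). Gtf2a1 was at 121 ± 10.4 normalized counts in WT and 182 ± 23.0 in KO (log2 fold change 0.58, SE 0.20, unadjusted p = 0.0252, limma adjusted p = 0.610). Taf7l minus Taf7 averaged 1.33 ± 0.38 in WT males, 1.17 ± 0.09 in Het males and 0.62 ± 0.28 in KO males, and its WT range (1.06 to 1.76) lay above its KO range (0.38 to 0.94). Both gave p = 0.1 in an exact permutation test (two-sided, adjusted p = 0.35 over the 7 pairs), which is the smallest p this test can give for 3 against 3. Of all 14223 genes tested for KO against WT, 19.9% had genotypes that did not overlap in normalized count, and 0 of the 9 members did. That share is for single genes, and none was computed for differences between paired genes. Tbpl1 minus Tbp ranged from 0.87 to 7.07 in WT, against 0.98 to 1.09 in Het and 0.74 to 1.10 in KO. The WT range came from Tbp, which was at 4.95, 460.2 and 31.9 normalized counts in WT males and at 385 to 726 in the other 6. Tbp, like all 9 members, was 1 of 23282 rows named by a merged transcript assembly. Another such row, Ybx2, also swung between males of the same genotype. It was at 11.1, 5124 and 4592 normalized counts in WT males, 17.0, 5225 and 66.7 in Het and 3960, 6793 and 38.4 in KO. What lay behind these swings was not tested. For Crem against Creb1, Crem against Atf1, and Rfx2 against Rfx1 or Rfx3, the WT and KO ranges overlapped.

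**Figure D3:**
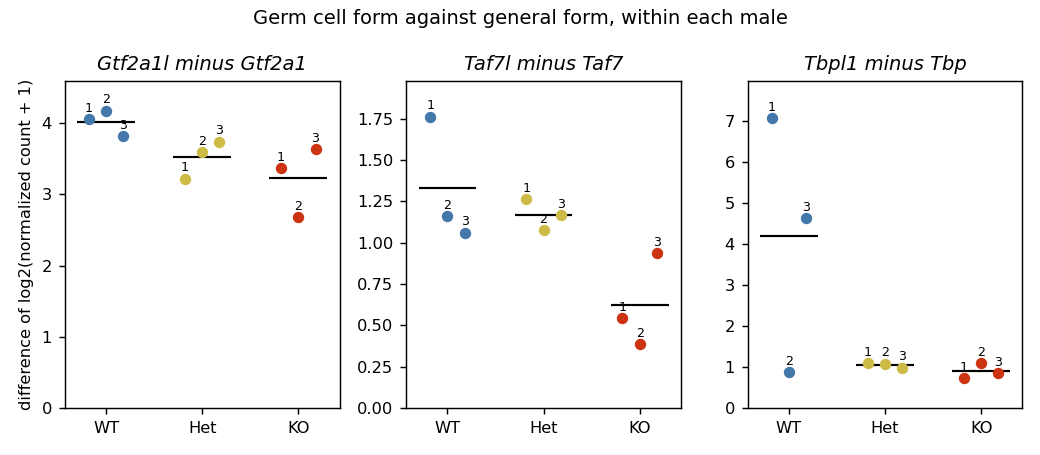
Difference of log2(normalized count + 1) between the germ cell form and the general form of a factor (y axis, from 0) in each male, by genotype (x axis). Points are males with their replicate number and bars are means (n = 3); for Gtf2a1l and Taf7l every WT male is above every KO male, and for Tbpl1 WT males 1 and 3 stand high because Tbp was low in them.

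RFX2 is the X-box factor of spermatids. Rfx2 (chromosome 17, 56775897 to 56831013, minus strand) was at 687, 407 and 544 normalized counts in WT males 1, 2 and 3. It was at 502, 667 and 545 in Het males and at 257, 468 and 376 in KO males. Every KO male was below every Het male, while KO and WT overlapped because WT male 2 was lower than KO male 2. KO against WT gave -0.58 (SE 0.31, 95% interval -1.33 to 0.16, limma adjusted p = 0.620). KO against Het gave -0.67 (SE 0.26, 95% interval -1.29 to -0.05, unadjusted p = 0.0385, limma adjusted p = 0.973).

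SOX30 is required for round spermatids to go on. Sox30 (chromosome 11, 45980310 to 46017994, plus strand) was at 271, 407 and 650 normalized counts in WT males, 522, 623 and 724 in Het males and 333, 465 and 427 in KO males. The KO males lay inside the WT range and below all Het males. KO against WT gave -0.04 (SE 0.35, 95% interval -0.88 to 0.81, limma adjusted p = 0.974), and KO against Het gave -0.61 (SE 0.20, 95% interval -1.09 to -0.12, unadjusted p = 0.0216, limma adjusted p = 0.973). Het against WT gave 0.57 (SE 0.35, limma adjusted p = 0.779).

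TCFL5 is a helix-loop-helix factor first made in spermatocytes. Tcfl5 (chromosome 2, 180621956 to 180642708, minus strand) was at 634, 1035 and 1268 normalized counts in WT males, 1122, 1237 and 1409.6 in Het males and 1033, 1119 and 1107 in KO males. The KO males were close together (SD 46.6) and again below every Het male, by a log2 fold change of -0.20 (SE 0.14, limma adjusted p = 0.973). Against WT, KO gave 0.21 (SE 0.28, limma adjusted p = 0.765), and this turned to -0.077 without WT male 1. The last 234 bases of Tcfl5 overlap the antisense gene Col9a3, which was at 24.1 to 65.2 normalized counts. Spz1 (chromosome 13, 92574636 to 92576172, minus strand), a helix-loop-helix zipper factor, was at 2723, 4698 and 4610.4 normalized counts in WT males, 3625, 4456 and 4172 in Het males and 3603, 2279 and 3992 in KO males. WT male 1 and KO male 2 were the low values, and KO against WT gave -0.28 (SE 0.31, limma adjusted p = 0.722). This was -0.037 without KO male 2 and -0.54 without WT male 1.

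To see whether loss of Pfn3 changed the regulators as a group, genes were called at an adjusted p under 0.05 with a log2 fold change over 1.5. In KO against WT, 0 of 9 members were called by limma, against 5 of 14223 genes tested (0.0352%). At an unadjusted p under 0.05 there were also 0 members, against 8.07% of all genes, and edgeR and DESeq2 on the recovered reads called 0 members. The members' median log2 fold change was -0.21, against 0.02 over all genes. Values were lower in KO for 6 members and higher for 3, against 6913 lower and 7310 higher over all genes. For 8 of 9 members the 95% interval lay within 1.5 in both directions, and Crem was the exception. A p over the threshold does not show that a level was equal in WT and KO.

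In Het against WT, 0 of 9 members were called, and limma called 0% of 14216 genes. No member had an unadjusted p under 0.05, against 3.34% of all genes, and for none did the genotypes separate, against 13.3%. DESeq2 called 33 genes and edgeR 0 in this comparison, with 0 members in both. Members' values were higher in Het for 6 and lower for 3, with a median log2 fold change of 0.09 against 0.01 over all genes. Of all genes tested, 7179 were higher in Het and 7037 lower.

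In KO against Het, 0 of 9 members were called, against 0.0558% of 14343 genes, and edgeR and DESeq2 also called 0 members. All 9 values were lower in KO, against 7219 of 14343 genes tested, with a median log2 fold change of -0.27 against -0.003 over all genes. The members were read in the same libraries, so these directions are not separate observations. Rfx2 and Sox30 had an unadjusted p under 0.05, 2 of 9 members against 3.56% of all genes. Every KO male was below every Het male for 3 members, Rfx2, Sox30 and Tcfl5, against 4.9% of all genes. This share counts 1 direction only, that of the members, while the 19.9% and 13.3% of the other comparisons count both directions. A share for both directions was not computed for KO against Het. Both comparisons with KO use the same KO males, and both comparisons with WT use the same WT males. The unadjusted calls of Rfx2 and Sox30 were both lost without Het male 2, without Het male 3 or without KO male 1, leaving 0 members under 0.05. Rfx2 alone was also lost without KO male 3 and with edgeR, and Sox30 alone with all 9 animals in 1 fit. Over the 16 alternatives Rfx2 kept an unadjusted p under 0.05 in 11 and Sox30 in 12. In bulk testis, fewer germ cells of a stage and less RNA of a gene per cell cannot be told apart.

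**Figure D4:**
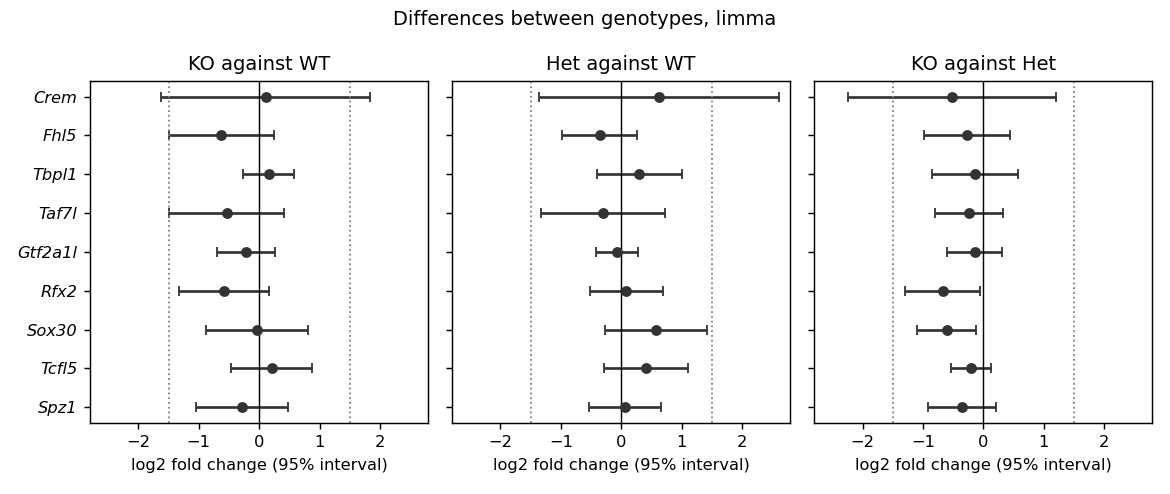
Log2 fold change (x axis) with its 95% interval for each regulator (y axis) in the 3 comparisons, from limma on log2(normalized count + 1), n = 3 males per genotype. Dotted lines mark 1.5 in each direction; intervals exclude 0 only for Rfx2 and Sox30 in KO against Het, without adjustment, and Crem has the widest interval.

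To describe how the members vary among themselves, each of 36 pairs was compared over the 9 males by an exact permutation test with Benjamini-Hochberg adjustment over the pairs. Sox30 and Tcfl5 were ordered identically in the 9 males (Spearman rho of 1, exact permutation p = 5.5e-06, adjusted p = 1.98e-04). Their Pearson r was 0.90 (exact permutation p = 2.8e-06, adjusted p = 9.9e-05), the smallest p the test can give. WT male 1 was lowest and Het male 3 highest for both genes, and without these 2 males r was 0.95 (exact permutation test, adjusted p = 0.00714). With genotype means removed r was 0.94. Of 14864 genes, 15 (0.101%), Tcfl5 itself included, had an r with Sox30 at least as high as that of Tcfl5. Likewise 276 (1.86%), Sox30 itself included, had an r with Tcfl5 at least as high as that of Sox30. This ranking was added after seeing the data. The points share libraries, depth and the cell make-up of the testis. Fhl5 and Tbpl1 ran in opposite order by rank (rho -0.90, exact permutation test, adjusted p = 0.0365), but not past the threshold by Pearson r (-0.49, adjusted p = 0.517), which became -0.77 without WT male 1 and KO male 2 (adjusted p = 0.0179). The next pairs by r, Fhl5 with Gtf2a1l (0.78) and Fhl5 with Taf7l (0.77), had an adjusted p of 0.482 by the exact permutation test and fell to 0.27 and -0.02 without those same 2 males.

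**Figure D5:**
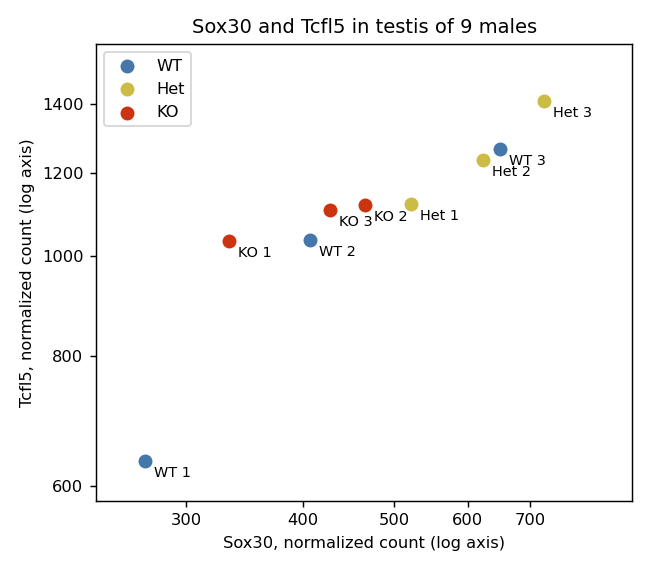
Normalized counts of Sox30 (x axis) and Tcfl5 (y axis), both on log axes, in each of the 9 males, coloured by genotype. The points rise without exception from WT male 1 to Het male 3 (Spearman rho of 1), and the 3 KO points lie to the left of the 3 Het points.

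Other genes of the pathway were taken from 3 lists. Of 15 general and somatic counterparts of the members, 14 passed the filter and 0 were called in KO against WT, with a median log2 fold change of 0.07. Creb1, a widely expressed relative of Crem, and Gtf2a1 had an unadjusted p under 0.05, against 8.07% of all genes. Creb1 was at 78.0, 86.8 and 78.2 normalized counts in WT males and 134, 167 and 152 in KO males (log2 fold change 0.89, SE 0.20, limma adjusted p = 0.529). KO and WT did not overlap for Creb1, nor for Gtf2a1, Fhl1 and Tbp of this list, against 19.9% of all genes tested. Atf1, another relative of Crem in the list, had a log2 fold change of -0.13, and its KO and WT values overlapped. Of 20 partners and other regulators of germ cell transcription, 0 were called, the median was 0.11, and Klf4, a zinc-finger factor of spermatids, had an unadjusted p under 0.05 (log2 fold change -0.56, limma adjusted p = 0.610).

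Of 16 genes transcribed in spermatids, the known output of this programme, 0 were called in KO against WT. In this list 15 had lower values in KO, against 6913 of all 14223. Medians on the log2 scale were -0.61 for the list, -0.21 for the regulators and 0.02 for all genes. The gap between list and regulators was not tested. The list was chosen with earlier results known, and its genes share libraries, so the 15 directions are not separate observations. The 7 spermatid genes with an unadjusted p under 0.05, against 8.07% of all genes, were Prm2, Tnp2, Odf1, Odf2, Gapdhs, H1fnt and Tekt1. Prm2, a protamine that packs sperm DNA, was at 54683, 41373 and 39826 normalized counts in WT males and at 25746, 16738 and 25543 in KO males (log2 fold change -1.01, SE 0.22, limma adjusted p = 0.529). Odf2, of the outer dense fibres, gave -1.10 (SE 0.38, limma adjusted p = 0.610), and Gapdhs, the sperm glycolytic enzyme, gave -0.80 (SE 0.18, limma adjusted p = 0.529).

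Markers of germ cell stages were set beside these values, and 0 of them were called in KO against WT. Over all genes tested, 51.4% had higher values in KO and 8.07% had an unadjusted p under 0.05. The mean log2 level of the 4 elongating spermatid markers was 15.65 to 15.75 in WT, 15.13 to 15.52 in Het and 14.64 to 15.33 in KO, and all 4 are also in the list of spermatid genes. That of the 6 round spermatid markers was 9.55 to 9.58 in WT, 9.33 to 9.58 in Het and 8.82 to 9.46 in KO. These markers also share a gene with the list of spermatid genes. Of the round spermatid markers 4 had lower and 2 had higher values in KO than in WT, and Tssk2 had an unadjusted p under 0.05. The 6 spermatocyte markers were at 7.74 to 8.03 in WT and 8.44 to 8.54 in KO, all 6 with higher values in KO, with Sycp1 and Sycp3 at an unadjusted p under 0.05. In Het they were at 7.58 to 8.59, a range that spans both. KO male 2 was the lowest male for 4 members (Fhl5, Gtf2a1l, Spz1 and Taf7l), and WT male 1 was the lowest for Crem, Sox30 and Tcfl5 and the highest for Fhl5, Rfx2 and Taf7l. Among the other marker lists, 0 genes were called in KO against WT for spermatogonia, Sertoli, Leydig, macrophage, peritubular and vessel, and erythrocyte lists, and Stra8 (lower) and Wt1 (higher) had an unadjusted p under 0.05. None of the epididymis markers passed the filter. The part of cell make-up in the members' values was not tested.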

How the data were processed

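Testis RNA of 9 males was sequenced from transcript 3′ ends (QuantSeq). The authors aligned reads with HISAT2 2.1 to GRCm38, counted genes with StringTie 1.3.3, left out pseudogenes and deposited a signal table of counts divided by a DESeq2 size factor for each sample. Every nonzero value was a whole multiple of 1 read (100%, tolerance 0.001), so reads were recovered. The labels give genotype and replicate number and no batch. Whether males sharing a genotype were littermates is not given in the sources used here, and p-values measure the spread between these samples.

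Genotypes were compared with limma 3.58.1 (R 4.3.3) on log2(value + 1), with fold changes on that scale, over genes with at least 10 in at least 3 of the animals compared and Benjamini-Hochberg adjustment over all of them. The scripts were tested on simulated data. edgeR 4.0.16 and DESeq2 1.42.0 on recovered reads, other filters, pseudocounts, TMM factors, all 9 animals in 1 fit, a replicate block and leaving out each animal were alternatives. Members, gene lists and markers were chosen with earlier results of these data known. Named genes were the members, their counterparts, and listed genes with an unadjusted p under 0.05 in KO against WT. The genes overlapping a member, and Ace, Smcp, Tssk6, Ybx2 and the genes most like Sox30, were named outside this rule after their values were seen. Annotation is GENCODE (GRCm38), promoters are from RefSeq, read with Python 3.11.15. The Crem promoter and Gm11906, which spans Fhl5, were not analysed here.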

Additional observations from a re-analysis of the deposited data

How the results depend on the processing

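No member was called under any of the 16 alternatives in any of the 3 comparisons. Of 432 recomputed fold changes of members, 414 kept their direction and their side of the threshold and 18 reversed. Crem in KO against WT, 0.11 as reported, was -0.011 with edgeR and -0.025 with DESeq2. Leaving out 1 male at a time, the log2 fold changes that reversed ranged in KO against WT from -0.52 to 0.70 for Crem, -0.077 to 0.42 for Tcfl5 and -0.35 to 0.28 for Sox30. In Het against WT they ranged from -0.081 to 1.22 for Crem, -0.54 to 0.13 for Taf7l, -0.19 to 0.20 for Spz1, -0.11 to 0.27 for Rfx2 and -0.0092 to 0.50 for Tbpl1. In KO against Het they ranged from -0.98 to 0.19 for Crem, -0.34 to 0.17 for Tbpl1, -0.50 to 0.043 for Fhl5 and -0.27 to 0.035 for Gtf2a1l. Rfx2 and Sox30 stayed lower in KO than in Het in every alternative, from -0.87 to -0.43 and from -0.73 to -0.47, with adjusted p of at least 0.821. Among those that kept their direction, KO against WT ranged without 1 male for Fhl5 (-0.85 to -0.31), Taf7l (-0.78 to -0.11), Spz1 (-0.54 to -0.037), Gtf2a1l (-0.34 to -0.035), Rfx2 (-0.78 to -0.35) and Tbpl1 (0.048 to 0.26), and which member had the largest change depended on the male left out. The replicate block gave 0 members called in each comparison and 0 genes called. Deviations of same-numbered males correlated at -0.14 to 0.19, so the numbers were not taken as pairs. Over all genes, limma called 5 in KO against WT, against 104 with DESeq2, 2 with values of at least 50, 3 with all 9 animals in 1 fit and 0 to 49 without 1 male. Het against WT went from 0 to 33 with DESeq2, and 0 to 3 otherwise. KO against Het went from 8 to 46 with DESeq2, 4 with values of at least 50 or all 9 animals in 1 fit, and 0 to 39 without 1 male. Pairs of members past an adjusted p of 0.05 by Pearson r numbered 1, and 2 without the 2 farthest males, the second being Fhl5 with Tbpl1. With 3 males per genotype, the 95% interval of Crem reached beyond 1.5 in all 3 comparisons. The cause of these shifts was not tested.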

Other observations

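In Het against WT, 0 of the 16 spermatid genes were called by limma. Lower values in Het were seen for 14, against 7037 of 14216 genes tested, with a median log2 fold change of -0.42. The 4 with an unadjusted p under 0.05, against 3.34% of all genes, were Prm2, Tnp2, Tekt1 and Tssk6. For the same list KO against Het gave a median of -0.27, with 13 lower values, against 7219 of 14343 genes tested. The 3 with an unadjusted p under 0.05, against 3.56% of all genes, were Ace, Odf1 and Smcp. The Sertoli gene Wt1 was at 9.90, 17.4 and 29.0 normalized counts in WT males, 168, 180 and 116 in Het males and 155, 199 and 32.2 in KO males. Wt1 is 1 of 6 Sertoli markers. The list as a whole did not follow it in Het against WT, and leaned the same way in KO against WT. In Het against WT, 3 were higher and 3 lower, with a median log2 fold change of -0.01. In KO against WT, 5 were higher and 1 lower, with a median of 0.42. The 5 genes whose values ran most like Sox30 over the 9 males were Eif4g3 (r = 0.96), F5 (0.95), 1700025L06Rik (0.94), Ermard (0.94) and Rnf126 (0.94), a ranking chosen after the values were seen.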
